A study of Caenorhabditis elegans with 24 samples.

Results

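The comparison described here sets 2 hypomorphic alleles of bcl-11 against each other, bon144 against bon125, in animals that carry no other mutation. The 4 libraries of bcl-11(bon144) and the 4 libraries of bcl-11(bon125) were compared across all genes whose mean rlog over these 8 libraries was 3 or more, which left 13463 of the 19320 genes in the table. Rlog, the regularized logarithm, is a log2 scale of normalised gene counts on which the differences of weakly expressed genes are drawn towards 0. The questions were which genes and functions part the alleles, and which genes follow developmental stage instead, as read from the genes named msp- and col-.

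The series holds 24 libraries of whole Caenorhabditis elegans, 4 from each of 6 genotypes, made on the first day of young adulthood from worms grown at 20 °C on the bacterial strain OP50-1. The bcl-11(bon125) allele is a frameshift that leaves the C2H2 zinc fingers of the protein in place and adds a stretch of foreign residues. The bcl-11(bon144) allele is an in-frame deletion with insertion in a conserved domain. Both were made by CRISPR-Cas9 editing in hermaphrodites with an intact daf-2 gene, backcrossed and kept as homozygotes, and each is represented by a single strain. Wild-type (wt, N2) libraries of the same table are given for reference. Double mutants of each allele with daf-2(e1370), which weakens the worm's insulin receptor, form a second, separately normalised table. The labels do not say whether the replicates came from separate cultures, so p-values measure the spread between these libraries, which may be technical.

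BCL11 proteins are zinc finger transcription factors, which in mammals act together with the SWI/SNF chromatin remodelling complex. In a C. elegans hermaphrodite, sperm are made during the last larval stage, before the germ line switches to oocytes, so transcripts of the major sperm proteins (msp- genes) are high in late larvae and decline in adults. Collagens of the cuticle (col- genes) are transcribed in waves that accompany each moult, and transcripts of both kinds therefore move with the age of the animals within a collection.

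The 4 bcl-11(bon144) libraries stood apart from each other more than those of bcl-11(bon125) or wt did. The median rlog of the kept genes lay between 7.55 and 7.67 in the 8 libraries, and the mean Pearson's r of a library with the others of its genotype ranged from 0.967 to 0.993, with the 4 lowest values in bcl-11(bon144). In a principal component analysis of the 8 libraries the leading component carried 52.99% of the variance and placed bcl-11(bon144) replicates 1 to 4 at -35.1, 28.0, 61.7 and -13.8, and the bcl-11(bon125) libraries between -14.2 and -0.71. The median SD of a gene was 0.25 for bon144 but 0.18 for bon125, and 68.9% of the genes had the larger SD in bcl-11(bon144). Markers of the intestine (5 of 5), body wall muscle (5 of 5), pharynx (4 of 4) and neurons (9 of 9) passed the filter. So did those of hypodermis (5 of 5) and germ line (7 of 7), as whole hermaphrodites would give. Of the sperm markers 4 of 6 passed, of the embryo markers 5 of 6, and of 3 genes of the male soma only 1. Fewer cells of a tissue and less RNA per cell cannot be told apart in whole animals.

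The edited gene itself comes first. On chromosome V, bcl-11 (WBGene00017430, 6356025 to 6362997, WBcel235) had an rlog of 6.30, 6.14, 5.86 and 6.29 in bcl-11(bon125) replicates 1 to 4 and of 6.43, 6.92, 7.08 and 6.17 in bcl-11(bon144). The groups overlapped, and the difference of 0.50 did not pass an exact permutation test (two-sided, n = 4 against 4, p = 0.0857, smallest possible p 0.0286). Leaving out 1 library at a time gave differences of 0.36 to 0.66 and exact permutation p-values of 0.0286 to 0.229. The difference of 0.66 and the p of 0.0286, the smallest that 3 against 4 libraries allow, came without bcl-11(bon144) replicate 4. As the edits lie in coding sequence, the amount of transcript is no check of the labels.

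Across the genome, the alleles were parted by 1 gene at an adjusted p of limma under 0.05 and a change above 1.5-fold (0.00743% of 13463). This gene, irld-53, encodes a protein with insulin/EGF-receptor L domains and was higher in bcl-11(bon144). At an unadjusted p under 0.05 there were 555 genes (4.12%), 294 higher (2.18%) and 261 lower (1.94%) in bcl-11(bon144). That share is below the 5% which this threshold gives when nothing differs, so the genes named below at an unadjusted p are a description of these libraries and not a list of changed genes. The share rested on 1 library, as without bcl-11(bon144) replicate 1 it was 10.3% (1392 genes), and it was 9.21% (1240 genes) with library weights and 5.7% with 12 libraries. The split between higher and lower genes depended on scaling, with 233 higher and 290 lower after the libraries were shifted to one median and 233 higher and 340 lower after quantile normalisation. For 396 genes (2.94%) the alleles did not overlap, 205 higher (1.52%) and 191 lower (1.42%).

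irld-53 (WBGene00021222), on the minus strand of chromosome V from 2348215 to 2350325, had an rlog of 7.40, 7.64, 7.77 and 7.76 in bcl-11(bon125) and of 8.90, 8.82, 9.16 and 9.15 in bcl-11(bon144). All bcl-11(bon144) libraries lay above all bcl-11(bon125) libraries, and the wt mean of 8.52 fell between the groups. From 7.64 ± 0.17 to 9.01 ± 0.17 (SD, n = 4), the gene rose by 1.36 in log2 units with an SE of 0.14 and an adjusted p of limma of 0.0333. The size of this difference varied little, whereas the call did not hold in every fit. With the replicate number, taken as the batch, as a block, the adjusted p of limma of irld-53 was 0.327. In that fit 0 genes were called, with 462 at an unadjusted p under 0.05. Leaving out any 1 library other than bcl-11(bon144) replicate 1 gave irld-53 an adjusted p between 0.0743 and 0.256 and a difference between 1.28 and 1.43.

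Further genes came into the call when wt was fitted as a group of its own. The median SD of a gene was 0.18 in wt, and the part of its smaller spread and of the larger number of libraries in the added calls was not tested. That fit of 12 libraries called 6 genes (0.0446%), of which 3 were higher and 3 lower in bcl-11(bon144), and in the fit of 8 libraries the 5 genes other than irld-53 had adjusted p-values of limma of 0.193 to 0.335. F56A4.3 (WBGene00018911), on the plus strand of chromosome V from 2453414 to 2456147, stood at 8.92, 9.36, 9.86 and 9.25 in bcl-11(bon125) and at 10.85, 10.44, 10.76 and 10.63 in bcl-11(bon144). ctsa-4.2, which encodes a cathepsin A-like protein, stood at 10.08, 10.25, 10.43 and 10.24 against 11.39, 11.00, 11.00 and 11.09. Both were higher in every bcl-11(bon144) library, by 1.32 (SE 0.19) and 0.87 (SE 0.13). The wt mean of ctsa-4.2 (10.27) was close to that of bcl-11(bon125) (10.25), while the wt mean of F56A4.3 (10.20) lay between those of the alleles (9.35 and 10.67).

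The 3 lower genes of that fit had wt levels close to those of bcl-11(bon125). F44E7.5 stood at 12.35, 11.87, 11.57 and 11.95 in bcl-11(bon125) and at 10.17, 10.90, 10.72 and 10.72 in bcl-11(bon144), a difference of -1.31 (SE 0.20) with a wt mean of 11.97. Y43C5A.7 stood at 9.89, 9.98, 9.55 and 9.73 against 9.04, 8.57, 8.94 and 8.78, a difference of -0.95 (SE 0.15) with a wt mean of 9.79. The non-coding RNA lfor-1 stood at 6.98, 7.10, 7.03 and 6.78 against 6.08, 6.08, 5.92 and 6.37, a difference of -0.86 (SE 0.15) with a wt mean of 7.03. None of the 3 genes overlapped between the alleles, and in every wt library each stood above all bcl-11(bon144) libraries. None of the 6 genes called with 12 libraries had a slope on the msp- or the col- mean (described below) at an adjusted p under 0.05.

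**Figure D1:**
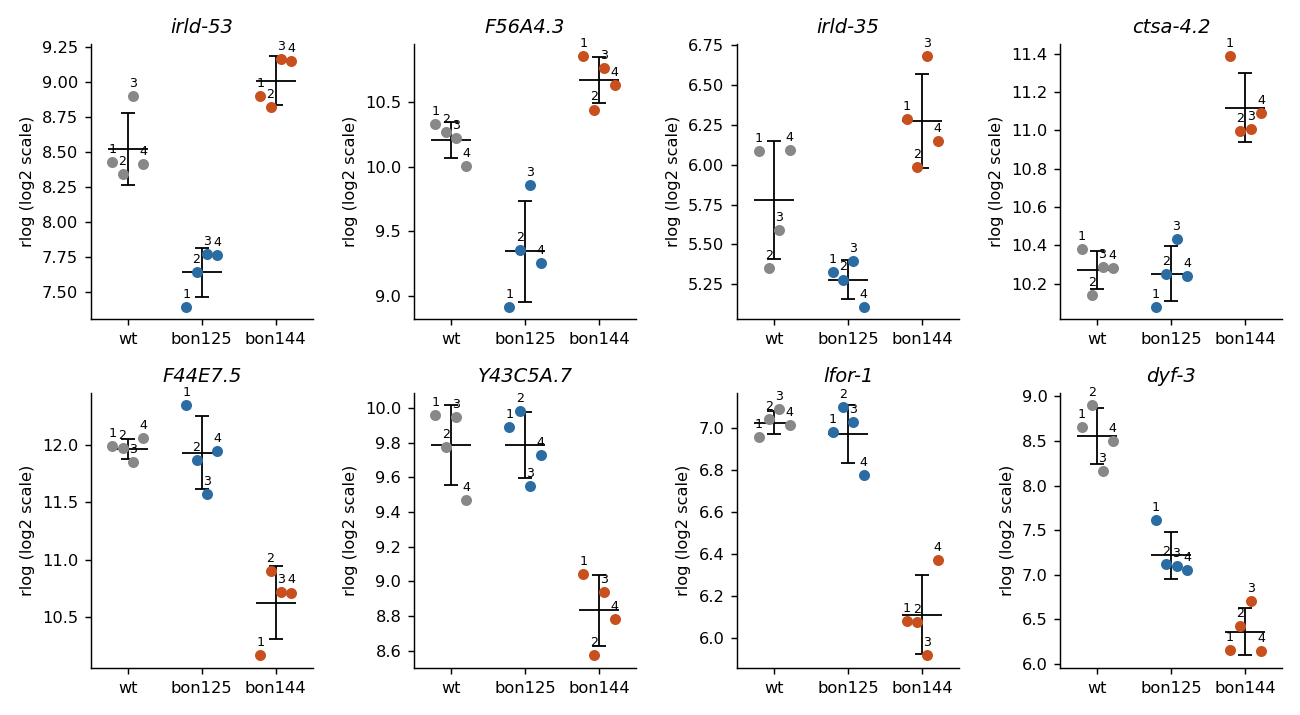
Rlog values of 8 genes in libraries of wt and of either allele (y axes on a log2 scale that differ between panels and do not start at 0). Points are libraries with their replicate numbers, horizontal bars are means and error bars are SDs of 4 libraries. The bcl-11(bon144) libraries of each gene lie wholly above or wholly below those of bcl-11(bon125), and only dyf-3 has both alleles below every wt library.

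irld-53 and F56A4.3 lie near each other on chromosome V, in a stretch where many genes have a second copy with identical values. The stretch from 2348215 to 2557415 holds 21 kept genes with 14 different sets of values. Of these genes 19 were higher in bcl-11(bon144), where 51.8% of all genes were, 7 did not overlap between the alleles, all 7 higher (1.52% of all genes), and 11 had an unadjusted p under 0.05 (4.12% of all genes). Counted as sets of values, 12 of 14 were higher and 5 did not overlap. The median difference was 0.40, against 0.01 over all genes. irld-35, the other kept irld gene of the stretch, stood at 5.33, 5.28, 5.40 and 5.11 in bcl-11(bon125) and at 6.28, 5.98, 6.68 and 6.15 in bcl-11(bon144), again with no overlap (difference 0.99, SE 0.17, adjusted p of limma 0.335). Y19D10A.11 and F56A4.12, which share 1 set of values, stood at 5.80, 5.92, 5.81 and 6.01 against 6.57, 6.46, 6.82 and 6.63. Reads of near-identical genes cannot be assigned with confidence, so each value in this stretch is uncertain as to the gene it belongs to. The stretch was examined because earlier results of these data pointed to it, and bcl-11 itself lies 3.80 Mb away on the same chromosome. In daf-2(e1370) without a bcl-11 edit, irld-53 (4.67 to 4.85) and F56A4.3 (4.94 to 5.04) stood at the level of daf-2;bcl-11(bon125), as described below. With a single strain per allele, an effect of the alleles, linkage to the edited locus and other differences between the strains cannot be told apart here.

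**Figure D2:**
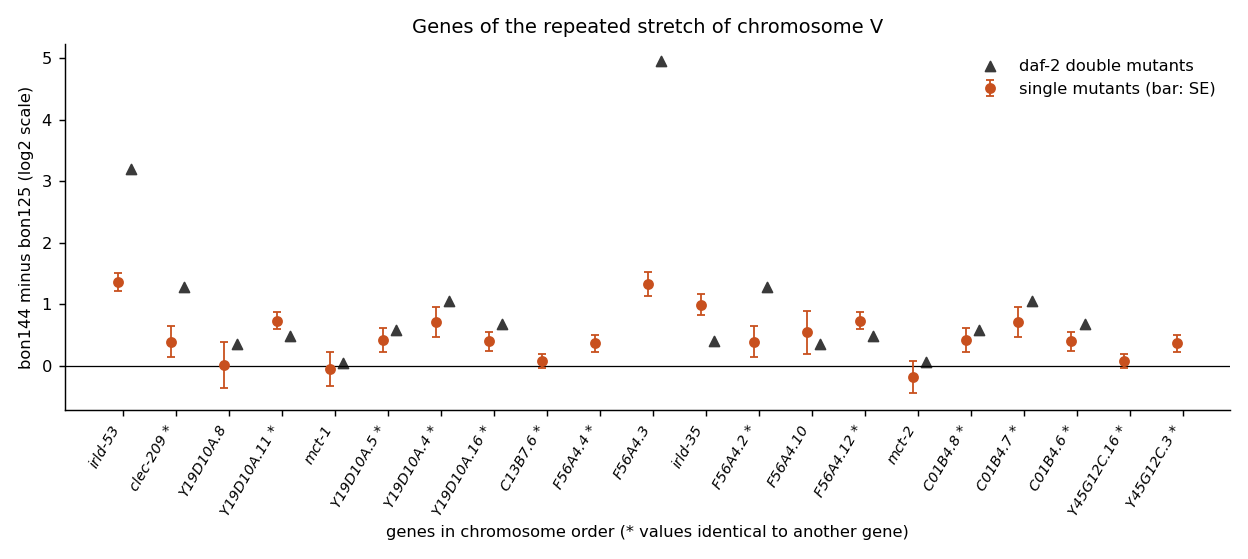
Difference between the alleles (bon144 minus bon125, log2 scale, y axis) for the 21 kept genes of the chromosome V stretch in chromosome order (x axis). Circles with SE bars are single mutants and triangles are daf-2 double mutants, where 17 of the genes were kept. In single mutants 19 of 21 genes lie above 0, with irld-53 and F56A4.3 highest in both backgrounds.

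Genes with the largest differences among those that did not overlap and moved alike in all same-numbered pairs were of mixed function. Higher in bcl-11(bon144) were ZK180.5 (2.45), cls-3 (1.27), which encodes a CLASP-family microtubule protein, F41F3.3 (1.17), nspe-7 (1.15) of a nematode-specific peptide family, the hedgehog-related gene grd-6 (1.13) and the collagen gene col-65 (1.04). Of these, ZK180.5, grd-6 and col-65 also had slopes on both the msp- and the col- mean at an adjusted p of limma under 0.05, and F41F3.3 on the col- mean. cls-3 stood at 8.31, 8.65, 8.52 and 8.48 in bcl-11(bon125) and at 8.68, 10.20, 9.82 and 10.37 in bcl-11(bon144). Replicate 1 of bcl-11(bon144) was thus near bcl-11(bon125), and without it cls-3 rose by 1.64 and was called (adjusted p of limma 0.0193). nspe-7 stood at 6.78, 6.78, 6.43 and 7.06 against 8.04, 7.40, 8.24 and 7.98, and its wt mean was 7.07. The adjusted p of limma was 0.393 for nspe-7 and 0.947 for cls-3 with all 8 libraries.

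Lower in bcl-11(bon144) were F56D6.9 (-2.11), the ribosomal RNA gene rrn-3.1 (-1.49), lea-1 (-1.24), clec-85 (-1.05), H40L08.7 (-0.97) and, from the lists, lys-10 (-0.88) and dyf-3 (-0.86), with adjusted p-values of limma of 0.526 to 0.985. lea-1, a late embryogenesis abundant protein gene linked to tolerance of water loss, stood at 13.55, 13.65, 13.82 and 13.30 in bcl-11(bon125) and at 11.62, 12.66, 12.27 and 12.82 in bcl-11(bon144). F56D6.9 stood at 7.59, 9.17, 8.84 and 7.17 against 6.44, 5.92, 5.43 and 6.52. Neither gene overlapped between the alleles, though both groups were wide in F56D6.9. dyf-3, which encodes a component of intraflagellar transport in sensory cilia, stood at 7.61, 7.12, 7.09 and 7.05 against 6.16, 6.43, 6.71 and 6.15, and its wt mean was 8.56. It was lower in bcl-11(bon144) than in bcl-11(bon125) in 4 of 4 same-numbered pairs (SE 0.19, adjusted p of limma 0.699). The other 22 kept genes of the cilium list differed by -0.39 (osm-11) to 0.38 (dyf-4).

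Histone genes were the list with the largest number of members at an unadjusted p under 0.05. Of 61 kept histone genes 53 were lower in bcl-11(bon144), against 48.2% of all genes, 20 of them with an unadjusted p under 0.05 and none higher, and 17 did not overlap, against 1.94% of all genes lower at that p and 1.42% lower without overlap. Since 31 of the genes share their values with another gene, this amounts to 42 sets of values, of which 35 were negative, 13 had an unadjusted p under 0.05 and 10 did not overlap. The mean rlog of the 61 genes was 6.34, 6.20, 6.18 and 6.14 in bcl-11(bon125) and 5.94, 6.01, 5.93 and 5.90 in bcl-11(bon144), with wt at 6.31, 6.21, 6.23 and 6.09. The allele groups did not overlap in this mean, and the median difference of the genes was -0.28. his-48 had the largest difference, from 7.77 ± 0.13 to 7.01 ± 0.48 (SD, n = 4), a difference of -0.76 (SE 0.22, adjusted p of limma 0.985). his-62 stood at 6.71, 6.62, 6.66 and 6.59 against 5.73, 6.30, 5.90 and 6.20. The 8 higher genes differed by at most 0.27 (his-72), with his-71 at 0.27 and his-24 at 0.12, while his-35 (-0.03) and his-74 (-0.07) were near 0. The lower level was thus not shared by all histone genes. No histone gene was called. The histone genes were chosen for this closer look after their values were seen, so these counts are a description and not a test. Without bcl-11(bon144) replicates 2 and 3, 18 histone genes were lower at an unadjusted p under 0.05 and 1 was higher. After quantile normalisation 23 were lower and 0 higher. Over all genes, 544 of 13388 were lower and 377 higher at that p without replicates 2 and 3. After quantile normalisation 340 of all 13463 were lower and 233 higher.

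Nuclear ribosomal RNA genes, likewise chosen after their values were seen, were also lower in bcl-11(bon144) in these libraries. Of 6 kept genes annotated as rRNA 4 had an unadjusted p under 0.05, all lower (1.94% of all genes), and as rrn-1.1 and rrn-1.2 share their values these are 3 sets. The mitochondrial rRNA genes differed by -0.05 and -0.13. For other RNA, 10 of 88 genes annotated as ncRNA had such a p, all lower. rrn-3.1 (chromosome I, 15064838 to 15068346) stood at 19.44, 20.16, 19.16 and 19.47 in bcl-11(bon125) and at 17.94, 18.38, 18.39 and 17.56 in bcl-11(bon144), from 19.56 ± 0.42 to 18.07 ± 0.40 (SD, n = 4), with wt at 19.39, 19.79, 19.85 and 19.25. rrn-3.1 did not overlap between the alleles, and its difference was -1.49 (SE 0.33, adjusted p of limma 0.786). rRNA and most replication-dependent histone mRNAs end without a poly(A) tail, and the cDNA of Smart-seq2 is primed from poly(A). The part of cDNA priming or RNA carry-over in the histone and rRNA values was not tested.

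**Figure D3:**
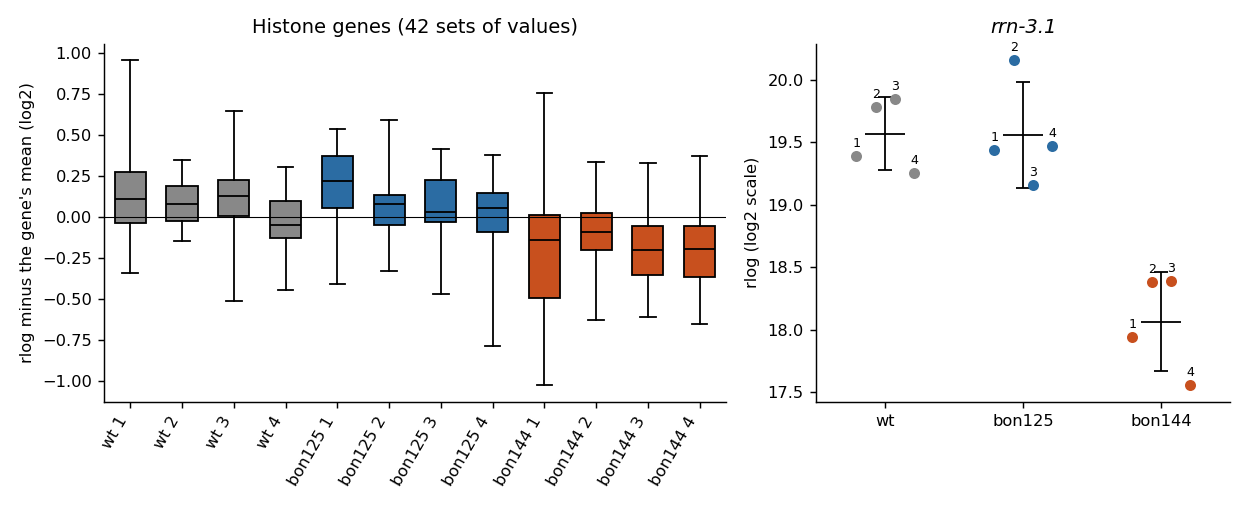
Left, rlog of the 42 sets of histone gene values in 12 libraries, each minus its mean over the libraries (boxes are quartiles with the median, whiskers reach the lowest and highest gene). Right, rlog of rrn-3.1 with the replicate number beside each library, means and SDs of 4 libraries (y axis does not start at 0). Histone medians of the 4 bcl-11(bon144) libraries lie below those of the 8 others, and rrn-3.1 lies between 17.56 and 18.39 in bcl-11(bon144) and between 19.16 and 20.16 in bcl-11(bon125).

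DAF-16 induced and antimicrobial genes at an unadjusted p under 0.05 were mostly lower in bcl-11(bon144), with none called. Of 20 kept genes induced by DAF-16, a FOXO protein held out of the nucleus by insulin signalling, 17 were lower (48.2% of all genes) and 6 had such a p, all lower (1.94% of all genes). These were lea-1, dod-3 (-1.15), the ferritin gene ftn-1 (-0.97), the lysozyme gene lys-7 (-0.85), icl-1 (-0.58) of the glyoxylate cycle and the small heat shock protein gene sip-1 (-0.55). dod-3 stood at 10.76, 10.56, 11.02 and 9.57 in bcl-11(bon125) and at 10.13, 9.39, 8.78 and 9.02 in bcl-11(bon144), with overlap. The list's median difference was -0.22, and -0.05 without bcl-11(bon144) replicates 2 and 3, when 13 genes were lower and 5 had an unadjusted p under 0.05. Of 50 kept antimicrobial effector genes (lysozymes, saposin-like proteins and antimicrobial peptides), 8 were lower and 2 higher at an unadjusted p under 0.05 (1.94% and 2.18% of all genes). lys-10 stood at 7.62, 7.49, 7.87 and 7.49 against 6.96, 7.05, 6.32 and 6.60, without overlap, while the caenacin gene cnc-2 (-0.93) overlapped. The list's median was -0.18, and 0.01 without replicates 2 and 3 of bcl-11(bon144), when 5 genes were lower and 1 higher at that p. Without replicate 1 it was -0.38, with 22 lower and 1 higher. Over all genes, 544 of 13388 were lower and 377 higher at that p without replicates 2 and 3. Without replicate 1, 722 of all 13470 were lower and 670 higher. C-type lectin genes were split, with 2 higher and 4 lower of 94 (2.18% and 1.94% of all genes), among the lower clec-85 and clec-145 (-0.96). Without bcl-11(bon144) replicate 1 there were 8 higher and 13 lower, where 10.3% of all genes had such a p.

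Of 271 kept F-box and MATH domain genes, whose products recruit substrates to ubiquitin ligases, 13 were higher and 0 lower in bcl-11(bon144) at an unadjusted p under 0.05 (2.18% and 1.94% of all genes), with a median difference of 0.08. This count was 7 higher and 1 lower after the shift to one median, and 5 higher and 1 lower after quantile normalisation. It was 26 higher with the msp- covariate, 39 with the col- covariate and 42 without bcl-11(bon144) replicates 2 and 3, while without replicate 1 there were 9 higher and 4 lower. Over all genes, 329 were higher and 336 lower with the msp- covariate, and 394 higher and 573 lower with the col- covariate. Without replicates 2 and 3, 377 of all genes were higher and 544 lower, and without replicate 1 these were 670 and 722. fbxa-67 (0.58) and fbxa-74 (0.56) differed most among the 13, and both overlapped between the alleles. Nuclear hormone receptor genes had 7 higher and 2 lower of 170 (2.18% and 1.94% of all genes), led by nhr-8 (0.45) and nhr-204 (0.41), and after quantile normalisation 4 higher and 3 lower. Detoxification enzyme genes had 8 higher and 3 lower of 147 (again against 2.18% and 1.94%), among them the glucuronosyltransferase genes ugt-17 (0.63) and ugt-43 (-0.50).

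Several other lists held from 0 to 3 genes at an unadjusted p under 0.05, where 2.18% of all genes were higher and 1.94% lower. Ribosomal protein genes had 1 of 76, rps-16 (-0.24), although 63 were lower. Without bcl-11(bon144) replicate 1 there were 12, all lower, where 722 of all 13470 genes were lower and 670 higher at that p. Without replicates 2 and 3 there were 0, with 28 of 76 lower. rps-16's libraries were tight, at 12.88, 12.91, 12.90 and 12.79 against 12.63, 12.60, 12.66 and 12.61. Respiratory chain and proteasome genes had 0 of 37 and 0 of 33, with medians of -0.005 and -0.01. Neuropeptide genes had 3 of 91, all lower, nlp-51 (-0.62), nlp-28 (-0.55) and ins-23 (-0.51). Of 23 kept muscle genes 22 were higher in bcl-11(bon144), with a median of 0.30, 2 of them at an unadjusted p under 0.05, the troponin I genes tni-1 (0.78) and tni-4 (0.32). Without bcl-11(bon144) replicates 2 and 3 the muscle median was -0.07, and 10 of 23 were higher. Of 23 oocyte and eggshell genes 21 were lower, 1 at an unadjusted p under 0.05, the eggshell gene perm-2 (-0.61), and without replicate 1 of bcl-11(bon144) 18 of the 23 were higher. The direction of the oocyte list thus rested on 1 library, and that of the muscle list on replicates 2 and 3 together, since without replicate 1 all 23 muscle genes were higher.

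**Figure D4:**
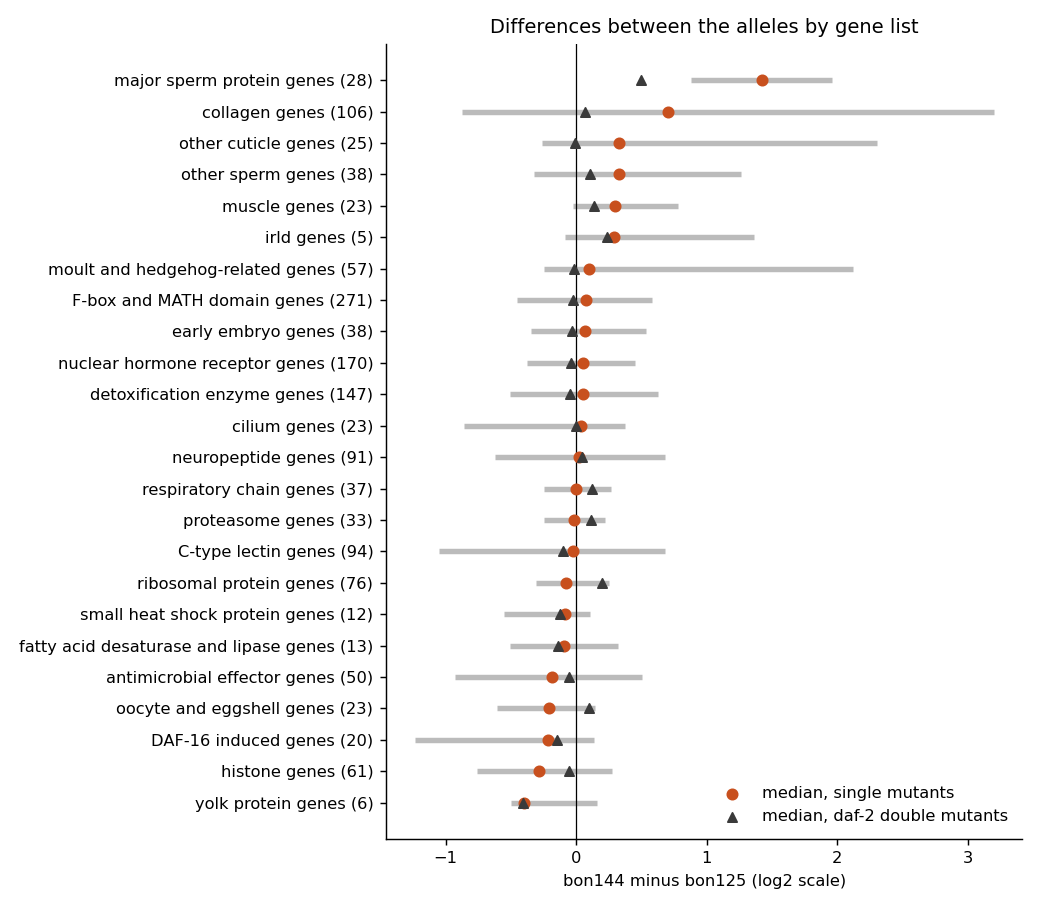
Differences between the alleles (bon144 minus bon125, log2 scale, x axis) for the gene lists, with the number of kept genes in parentheses. Circles are list medians in single mutants, grey bars reach from the lowest to the highest gene, and triangles are medians in daf-2 double mutants over the genes kept there. The major sperm protein genes have the highest median in single mutants (1.42) and the yolk protein genes the lowest (-0.40).

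Next, the genes named msp- and col- were examined. All 28 kept msp- genes of 30 were higher in bcl-11(bon144), by 0.88 (msp-32) to 1.96 (msp-78), with a median of 1.42, but with a median SE of 1.35 none had an unadjusted p under 0.05 and none was without overlap. The mean of the 28 genes was 4.67, 6.92, 6.03 and 5.08 in bcl-11(bon125) and 4.56, 8.10, 10.95 and 4.60 in bcl-11(bon144), with wt at 4.60, 6.23, 7.45 and 6.82. Replicates 2 and 3 of bcl-11(bon144) were above all bcl-11(bon125) libraries, and replicates 1 and 4 were below all of them. The mean difference was 1.38, and without replicates 2 and 3 it was -1.10, so its direction rested on those libraries. In those 6 libraries 0 of 27 kept msp- genes were higher. Of the 28 genes, msp-78 stood at 3.61, 4.75, 4.41 and 4.09 against 3.80, 6.43, 10.58 and 3.89, with replicate 3 of bcl-11(bon144) far above the next library.

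Collagen genes followed the same bcl-11(bon144) libraries. Of 148 col- genes 106 were kept, and 92 were higher in bcl-11(bon144), with a median of 0.70 and a range from -0.87 (col-158) to 3.20 (col-145). At an unadjusted p under 0.05 there were 9 higher and 1 lower (2.18% and 1.94% of all genes), and 2 did not overlap, both higher (1.52% of all genes). The 9 became 24 with the replicate block, 56 without bcl-11(bon144) replicate 1 and 5 (with 13 lower) without replicates 2 and 3. Over all genes, these fits had 270, 670 and 377 higher at that p, and 192, 722 and 544 lower. The mean of the 106 genes was 7.76, 7.72, 7.37 and 7.43 in bcl-11(bon125) and 7.21, 9.12, 10.51 and 7.56 in bcl-11(bon144), while the 4 wt libraries lay between 7.48 and 7.77. Replicates 2 and 3 of bcl-11(bon144) thus exceeded all other libraries, which lay between 7.21 and 7.77. The mean difference was 1.03, and -0.19 without these libraries, when 26 of 96 kept col- genes were higher. col-145 stood at 2.76, 3.36, 3.15 and 2.87 against 2.88, 6.00, 13.08 and 2.95.

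Genes of the cuticle and of moulting outside the col- family were examined as well. dpy-4, a cuticle collagen, stood at 5.89, 5.05, 5.38 and 5.18 in bcl-11(bon125) and at 4.83, 8.80, 10.43 and 6.64 in bcl-11(bon144). col-73 (3.07) and col-14 (2.2) had the same order of bcl-11(bon144) libraries, replicate 3 highest and replicate 2 next. The cuticlin gene cut-2 stood at 6.37, 4.83, 5.27 and 5.14 against 6.21, 6.82, 8.01 and 6.58, and qua-1, a hedgehog-related gene needed in moulting, at 4.82, 4.64, 5.23 and 4.76 against 4.90, 5.23, 6.11 and 5.67. Of 25 other cuticle genes 6 were higher and 1 lower at an unadjusted p under 0.05 (2.18% and 1.94% of all genes). Of 57 moult and hedgehog-related genes 5 were higher and 0 lower, against the same shares, and no gene of either list was called. Without bcl-11(bon144) replicates 2 and 3 the other cuticle genes had 1 higher and 1 lower at that p and 20 of 25 were still higher (median 0.28, against 0.33 with all libraries), whereas the moult list had a median of -0.002. In cut-2 and qua-1 the groups overlapped through a single library of each allele.

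**Figure D5:**
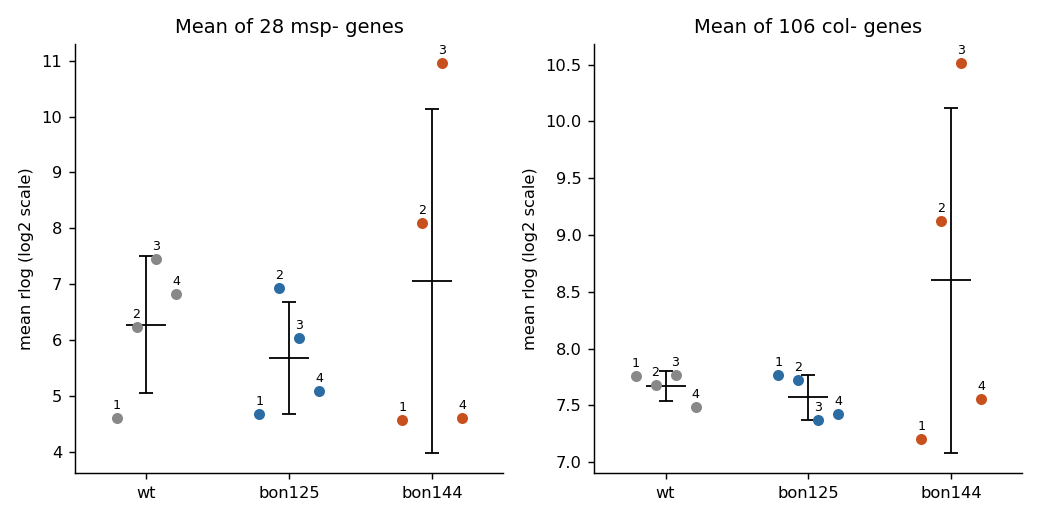
Mean rlog of the 28 kept msp- genes (left) and the 106 kept col- genes (right) in each library (y axes on a log2 scale that do not start at 0). Points are libraries with replicate numbers, and bars are means with SDs of 4 libraries. Replicates 2 and 3 of bcl-11(bon144) are the highest libraries in both panels, whereas replicates 1 and 4 lie at or below the lower bcl-11(bon125) libraries in the msp- panel.

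To find the genes that follow these means across libraries, each gene was fitted with the allele and the library's msp- mean as a covariate. The slope on the msp- mean passed an adjusted p of limma under 0.05 in 598 genes (4.44%), 590 rising (4.38%) and 8 falling (0.0594%), and 570 of them lie outside the msp- list. The slope on the col- mean passed in 705 genes (5.24%), 658 rising (4.89%) and 47 falling (0.349%), 625 of them outside the col- list. The means share 565 of these genes and 738 follow at least 1 of them. The msp- and col- genes make the covariates, so their own slopes are no finding. These counts are likely too large, since in simulated data in which bcl-11(bon144) varied more than bcl-11(bon125) such slopes were called more often than the threshold allows.

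Followers of the msp- mean included sperm genes outside the msp- family. Of 38 kept sperm genes 27 rose with it and 0 fell. ssp-9 and ssp-11, sperm-specific genes with identical values, stood at 4.65, 6.53, 5.68 and 4.66 in bcl-11(bon125) and at 4.55, 7.23, 9.16 and 4.48 in bcl-11(bon144), a slope of 0.75 per unit of the mean. gsp-4, a phosphatase gene of sperm, stood at 3.48, 4.25, 3.54 and 3.47 against 3.49, 4.79, 5.72 and 3.70, and in wt at 3.48, 3.72, 4.27 and 4.73. Y57G11A.2 and T10E9.4, chosen after their values were seen, had slopes of 0.71 and 0.76. ssp-9 stood at 4.52, 5.88, 6.89 and 6.51 in wt, the order of the wt libraries in the msp- mean, while gsp-4 was highest in another wt library. Of the collagen genes 67 of 106 rose with the msp- mean, while of the histone, yolk, oocyte, F-box and nuclear hormone receptor genes 0 did. With the col- mean 26 of the 38 sperm genes and all 28 msp- genes rose as well. The means thus do not separate sperm genes from cuticle genes in these libraries.

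Followers of the col- mean included other genes of the cuticle. The cuticle collagen bli-6 stood at 5.21, 5.46, 4.79 and 4.68 in bcl-11(bon125) and at 4.93, 8.23, 10.93 and 4.49 in bcl-11(bon144), a slope of 1.96 per unit of the mean, and rol-1 (2.16) and the hedgehog-related gene grl-16 (1.62) were similar. Of 57 moult and hedgehog-related genes 9 rose with the col- mean, of 25 other cuticle genes 7, and of 23 muscle genes 5. Falling genes numbered 47, and 177 without bcl-11(bon144) replicate 4 and 193 with the replicate block. tts-1, a long non-coding RNA, stood at 8.66, 8.00, 8.61 and 8.43 against 8.60, 7.58, 7.14 and 8.40 (slope -0.45), and 5 F-box and MATH domain genes and the metallothionein gene mtl-1 (slope -0.43) fell as well. rol-1, grl-16 and tts-1 were chosen after their values were seen.

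How far these slopes rest on bcl-11(bon144) was examined in the bcl-11(bon125) and wt libraries alone, an alternative chosen after seeing the data. The bcl-11(bon125) libraries are among the 8 in which the followers were called, so this is no independent check. There the msp- mean still ranged from 4.60 to 7.45, 149 genes followed it, and 147 of these were among the 598. Of the 570 followers outside the msp- list, 489 had the same sign, where 47.4% of all genes had a positive slope. The col- mean hardly varied there, from 7.37 to 7.77, and 0 genes followed it. Of the 625 followers outside the col- list 272 had the same sign, where 49.3% of all genes had a positive slope. Without bcl-11(bon144) replicate 3, 219 genes followed the msp- mean and 92 the col- mean, whereas without replicate 2 the col- mean had 684 followers. Most calls on the col- mean thus rested on replicate 3, while slopes on the msp- mean were also seen among libraries of the other genotypes.

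The overlap between genes that part the alleles and genes that follow the means was near the background. Of the 555 genes with an unadjusted p under 0.05 between the alleles 33 followed a mean, 5.95% against 5.48% of all genes. Genes that follow a mean vary between libraries of the same allele, which widens the SE of their allele difference. These shares therefore cannot tell whether differences between the alleles and stage are related. With the msp- mean as a covariate irld-53 was called (adjusted p of limma 0.0493) and 665 genes had an unadjusted p under 0.05. With the col- mean none was called (smallest adjusted p 0.0801), while 967 genes reached an unadjusted p under 0.05.

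Finally, the same alleles were compared in daf-2(e1370) double mutants, which share no library with the single mutants. Among 14145 kept genes 7 were called (0.0495%), 5 higher (0.0353%) and 2 lower in daf-2;bcl-11(bon144), and 708 (5.01%) had an unadjusted p under 0.05. irld-53 was at 4.84, 4.71, 4.76 and 4.62 in daf-2;bcl-11(bon125) and at 7.72, 7.82, 8.25 and 7.96 in daf-2;bcl-11(bon144), a rise of 3.20 (adjusted p of limma 3.91e-08). F56A4.3 rose by 4.96 (adjusted p 6.79e-11), from 5.15, 5.03, 5.05 and 4.87 to 9.85, 9.97, 10.18 and 9.95. In both genes the alleles were thus parted in the same direction in either background, by more in the double mutants. In daf-2(e1370) alone irld-53 lay between 4.67 and 4.85 and F56A4.3 between 4.94 and 5.04, at the level of daf-2;bcl-11(bon125), whereas in the single-mutant table the wt means lay between the alleles. The difference between backgrounds, that in single mutants minus that in double mutants, was -1.84 for irld-53 (adjusted p of limma 0.000185) and -3.64 for F56A4.3 (adjusted p 2.21e-07), the 2 genes called of 13123 tested (0.0152%), of which 480 (3.66%) had an unadjusted p under 0.05.

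For the other genes the difference between backgrounds was not called, and their values stand side by side here. Y19D10A.4 and C01B4.7, with identical values from the chromosome V stretch, rose by 1.05 in the double mutants and differed by 0.72 in single mutants (unadjusted p 0.0148). C55C3.3 rose by 1.24 in the double mutants and differed by 0.05 in single mutants. ctsa-4.2 (-0.22), F44E7.5 (0.04), Y43C5A.7 (-0.05), lea-1 (0.01) and nspe-7 (0.01) had differences near 0 or of the other sign in the double mutants, and lfor-1 (-0.26), dyf-3 (-0.13) and lys-10 (-0.28) small differences of the same sign, none of them called. Of the 542 genes with an unadjusted p under 0.05 in single mutants that were kept in both tables, 326 (60.1%) had the same sign in the double mutants, against 54.9% of all 13123 genes. The share was 68.2% among the lower and 53% among the higher genes, and 61.1% among the 512 that followed neither the msp- nor the col- mean. Among all genes that followed either mean it was higher, at 73.1% (478 of 654). The median of the histone genes was -0.05 in the double mutants, against -0.28 in single mutants, and that of the msp- genes 0.50 against 1.42. Since the tables were normalised separately, levels across them carry no test.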

How the data were processed

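The deposited values are on a log2 scale: for each table of 12 libraries separately, normalised gene counts were transformed to rlog by the authors. Per the labels and the methods, total RNA was made into non-stranded Smart-seq2 libraries, sequenced paired-end, converted with bcl2fastq 2.20 and assigned with kallisto to C. elegans transcripts (WBcel235). With rlog alone the sequencing depth is unknown, and the precision is that of the 4 replicates. Names came from Ensembl release 115 of WBcel235 and, for 1247 shared or missing names, from RefSeq. Among the single mutants' genes, 472 have exactly the values of another gene, and without strand overlapping genes are uncertain.

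Genes with a mean rlog of 3 or more over the 8 libraries were kept. limma 3.58.1 in R 4.3.3 was fitted with allele means (eBayes with a trend), with two-sided p-values adjusted by Benjamini-Hochberg over all kept genes. A gene was called at an adjusted p under 0.05 and an absolute log2 fold change above 0.585. Only the 8 libraries were fitted, since those of bcl-11(bon144) spread more widely. Slopes on the library mean of the kept msp- or col- genes were called at an adjusted p under 0.05. Replicate numbers were taken as batches and thus pair libraries. The deviations of same-numbered libraries correlated with a mean r of 0.105 (lowest -0.079, highest 0.368). The code was tested on simulated data. The alternatives were the replicate block, all 12 libraries, other filters, priors, weights and scalings, covariates and leaving out libraries.

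Named were bcl-11, genes called with 8 or 12 libraries, the 8 largest differences in each direction among genes with an unadjusted p under 0.05, no overlap and 1 direction in all same-numbered pairs, and up to 2 genes per list with the largest differences at an unadjusted p under 0.05. Members and lists were chosen with earlier results of these data known, and alternatives for the lists were added after seeing the data. The exact permutation test was used for bcl-11 alone.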

Additional observations from a re-analysis of the deposited data

Results flagged for a closer look

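In 6 of 138 groups of 4 libraries examined (named genes and list means), 1 library lay far from the other 3 by Dixon's ratio of the gap to the whole range, which is 4.35%, where chance gives about 1 in 20. In bcl-11(bon125), dyf-3 was 7.61 in replicate 1 and 7.05 to 7.12 in the others (ratio 0.874), his-48 was 7.58 in replicate 2 and 7.81 to 7.85 in the others (0.857), nlp-28 was 11.45 in replicate 1 and 11.89 to 11.91 in the others (0.958), and the mean of the respiratory chain genes was 10.20 in replicate 3 and 10.04 to 10.05 in the others (0.929). In bcl-11(bon144), fbxa-74 was 5.99 in replicate 1 and 6.56 to 6.59 in the others (0.95), and the mean of the 5 kept irld genes was 5.84 in replicate 3 and 5.37 to 5.39 in the others (0.954). The irld mean of the bcl-11(bon125) libraries lay between 4.91 and 4.98, below all 4 of bcl-11(bon144). Of the 5 genes only irld-53 (1.36) and irld-35 (0.99), both of the chromosome V stretch, had an unadjusted p of limma under 0.05, and 1 was lower. The separation of this mean is therefore no result about the irld family.

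The difference between the alleles itself differed between single and daf-2 double mutants for F56A4.3 (-3.64) and irld-53 (-1.84), as tested with limma over 13123 genes.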

How the results depend on the processing

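The number of genes called between the alleles in single mutants was 1 with all 8 libraries and also with the filter over 12 libraries, the filter at 5, other priors, library weights, other scalings, the msp- covariate and identical genes counted once. It was 6 with 12 libraries, and 0 with the replicate block, without a filter on low values, with the col- covariate and without bcl-11(bon144) replicates 2 and 3. Leaving out 1 library gave 0 to 2 genes, 2 without bcl-11(bon144) replicate 1. The fold changes of genes named by the rule, other than the msp- and col- genes given as highest and lowest, kept their sign under these alternatives. Followers of the msp- mean numbered 219 to 658 when 1 library was left out and 149 in bcl-11(bon125) and wt alone. Followers of the col- mean numbered 92 to 878, 0 in bcl-11(bon125) and wt alone, and 1159 without a filter. With the replicate block 435 genes followed the msp- mean and 885 the col- mean. Fits of these slopes with library weights could not be fitted. In the double mutants 3 genes were called without a filter, 9 with the block and 3 to 11 when 1 library was left out, 11 without daf-2;bcl-11(bon144) replicate 3. The difference between backgrounds kept 2 to 3 calls throughout. The bcl-11 difference was 0.36 to 0.66 when 1 library was left out, and an exact sign-flip test of the same-numbered pairs gave p = 0.25 (smallest possible 0.125). Mean differences were 0.08 to 2.21 for msp- genes and 0.39 to 1.49 for col- genes when 1 library was left out, and -1.10 and -0.19 without bcl-11(bon144) replicates 2 and 3. Apart from the fewer libraries or genes fitted, the cause of these changes was not tested. Rlog draws low values together, which limits what can be seen in weakly expressed genes.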
